A study of Mus musculus with 384 samples.

Results

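*Anxa2* and *Tmem176a* are 2 of the 69 genes in the deposited table of normalized reads, picked by their symbols across all 12 region labels. They were selected on their own values, since both were known to fall into a low and a high range in samples labelled Pit, dDG and vDG. The levels by region and the ranges are therefore given as descriptions, with no test. The data are targeted RNA libraries of frozen micropunches from male Balb/c mice, made to follow genes of a glucocorticoid receptor-related network under stress. The labels put 32 mice into 4 groups of 8, namely MS and Co, each either inject or naive, and each mouse gave a sample for AMY, BNST, CER, PFC, PVN, dCA1, dCA3, vCA1, vCA3, Pit, dDG and vDG. All groups share sex, strain and, by the labels, an age of postnatal day 9, whereas the study describes adult animals. The study describes rearing with either limited nesting material or early handling, followed by either social defeat or housing with a female. Neither MS, Co, inject nor naive was matched to these conditions, so no statement is made on them. Pit is not spelled out in the labels and is absent from the study's list of regions, which names the nucleus accumbens in its place. Of 384 labelled samples, 380 had values, with 285 in the 9 regions other than Pit, dDG and vDG and 95 in these 3.

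Annexin A2, the product of *Anxa2*, is a protein that binds acidic phospholipids in the presence of calcium. With its partner S100A10 it forms a complex at the plasma membrane and at endosomes, and it is known for roles in membrane traffic and in the generation of plasmin at the cell surface. TMEM176A, the product of *Tmem176a*, is a membrane protein with several membrane-spanning segments that belongs to the MS4A-like family and was described in dendritic cells, among others. Its gene lies next to that of its paralogue TMEM176B.

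Both genes are given here by the place their assay reads, since each value counts reads of a single short amplicon and not of a whole transcript. On GRCm38 (GENCODE M21), *Anxa2* (ENSMUSG00000032231) lies on the plus strand at chr9:69453620-69491795 and *Tmem176a* (ENSMUSG00000023367) on the plus strand at chr6:48840919-48847071. The row identifiers carry the transcript and 2 further numbers, 11 and 12 for *Anxa2* and 4 and 5 for *Tmem176a*, which were read here as exon numbers since they lie within the exon counts of these transcripts. The sources used here do not state what they are. Under this reading the *Anxa2* assay joins exon 11 (chr9:69488055-69488113) and exon 12 (chr9:69489652-69489774) of a transcript of 13 exons. The *Tmem176a* assay joins exon 4 (chr6:48843785-48843841) and exon 5 (chr6:48843961-48844179) of a transcript of 7 exons. Both junctions lie in the coding part, which spans 339 codons for *Anxa2* and 244 codons for *Tmem176a* without the stop codon. The 30 bases on each side of each junction follow as GENCODE gives them, with the second exon in capitals.
Anxa2 exon 11 to 12: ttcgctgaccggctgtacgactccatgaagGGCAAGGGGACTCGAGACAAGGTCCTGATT
Tmem176a exon 4 to 5: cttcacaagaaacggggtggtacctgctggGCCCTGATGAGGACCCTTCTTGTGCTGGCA

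*Tmem176a* overlaps its neighbour *Tmem176b*, on the minus strand at chr6:48833818-48841496, by 578 bases at their starts, and the junction above lies outside this overlap. Because both members were high in the same samples, the sequence before their starts was looked at too. Of 187 bases before the first annotated *Anxa2* exon, taken from the RefSeq promoter table (GRCm38.p6, plus strand, chr9:69453433-69453619), the following letters hold a GC box and an AP-1 site in capitals.
Anxa2 upstream: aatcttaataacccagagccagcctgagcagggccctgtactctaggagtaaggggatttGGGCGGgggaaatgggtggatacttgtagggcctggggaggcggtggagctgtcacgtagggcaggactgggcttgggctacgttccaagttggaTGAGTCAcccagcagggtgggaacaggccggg
On both strands, 5 motifs were searched, namely the TATA box (TATAAA), the CCAAT box, the GC box (GGGCGG), the AP-1 site (TGAGTCA) and the half-site of the glucocorticoid response element (TGTTCT). The TATA box, the CCAAT box and the half-site were not in these letters. Of 32851 promoter stretches of this length, 22.2% held the GC box and 3.29% the AP-1 site, against 8.62% with the TATA box, 26.2% with the CCAAT box and 12.5% with the half-site. Neither of the 2 stretches listed for *Tmem176a* held any of the motifs, and they are not printed since they lie mostly in annotated exons. A match is a description of letters and says nothing on binding.

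The libraries held 12898 to 261007 reads over the 69 assays, with a median of 139846, where 1 step of the values of a sample was taken as 1 read. *Anxa2* took 206742 reads over all samples and *Tmem176a* 266676, which placed them 25th and 22nd of 69, and neither was at 0 in any sample. The smallest amount that 3 reads stand for was a value of 27.8 in the shallowest library and 2.87 at the median step, so single low values carry a wide counting error. Amplified reads are not independent molecules, and such a floor covers counting error only. None of the marker genes of neurons, glia, endothelium, meninges, choroid plexus, pituitary endocrine cells or dentate granule cells that were looked for is among the 69 assays. The labelled tissue could therefore not be checked, and the regions are named here by their labels alone. Samples of the upper range described below numbered 16 in Pit, 8 in dDG and 7 in vDG, or 31 in all, where each region has 32 labelled samples and 1 vDG sample has no values. Samples low in *Ociad2*, also described below, numbered 8 in CER, 8 in dCA3 and 16 in vCA3, or 32 in all. By label group the low *Ociad2* samples were 2 of each in CER and dCA3 and 4 of each in vCA3. Libraries were prepared on plates of 3 regions each, in plate columns of 8 samples with 2 of each group. Which sample was in which plate or column is not given in the sources used here, so plates and regions cannot be told apart. The part of the plate layout in these counts, and whether the region labels of these 6 regions or of the others are in order, was not tested. Fewer cells of a type cannot be told apart from less RNA per cell in these bulk samples. The vDG sample of mouse 83 (MS inject) stood apart, and results that rest on it are given with and without it.

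In the 9 regions other than Pit, dDG and vDG, *Anxa2* was a gene of moderate level with region medians between 123 and 285. Values are reads divided by the size factor of the sample. BNST had the lowest median, 123 (30.2 to 339.6, n = 31), followed by AMY with 139 (51.3 to 367, n = 32). In PFC the median was 145 and the range ran from 2.95 to 328 (n = 32), where the lowest value rests on 2 reads of mouse 109 and the next was 63.0. These 3 regions overlapped over nearly their whole range. PVN had a median of 188 (26.9 to 643, n = 30) and dCA1 of 198 (52.5 to 817, n = 32), the highest *Anxa2* value in these regions. The 4 regions with the highest medians were vCA1 with 264 (42.1 to 626), vCA3 with 268 (116 to 517), dCA3 with 281 (131 to 611) and CER with 285 (163 to 541), each with n = 32. CER, dCA3 and vCA3 were the most even regions, with an SD of 0.46, 0.45 and 0.54 on the log2 scale, against 1.17 in PFC. No step between neighbours in this order was larger than the smaller SD of the pair.

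*Tmem176a* had a different order of regions. Its lowest median was that of vCA3, 97.3 (35.3 to 300.4, n = 32), a region in which *Anxa2* was near its highest. This median pools 16 samples low in *Ociad2* (median 63.6) and 16 others (185), while CER and dCA3 hold 8 low ones each. PVN followed with a median of 179 (105 to 869, n = 30). The remaining medians lay close to each other, with 222 in dCA1 (30.8 to 719), 252 in dCA3 (44.1 to 511), 262 in AMY (86.1 to 384), 263 in PFC (73.3 to 586) and 267 in CER (29.8 to 415), each with n = 32. BNST had a median of 270.4 (105 to 674, n = 31). The highest was vCA1 with 333 (146 to 764, n = 32). The step from vCA3 to PVN, 0.87 on the log2 scale, was larger than the smaller SD of the pair (0.84), and no other step among these 9 regions and the lower ranges below was. Over the 9 region medians the rank correlation of both genes was -0.17 as a description.

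**Figure D1:**
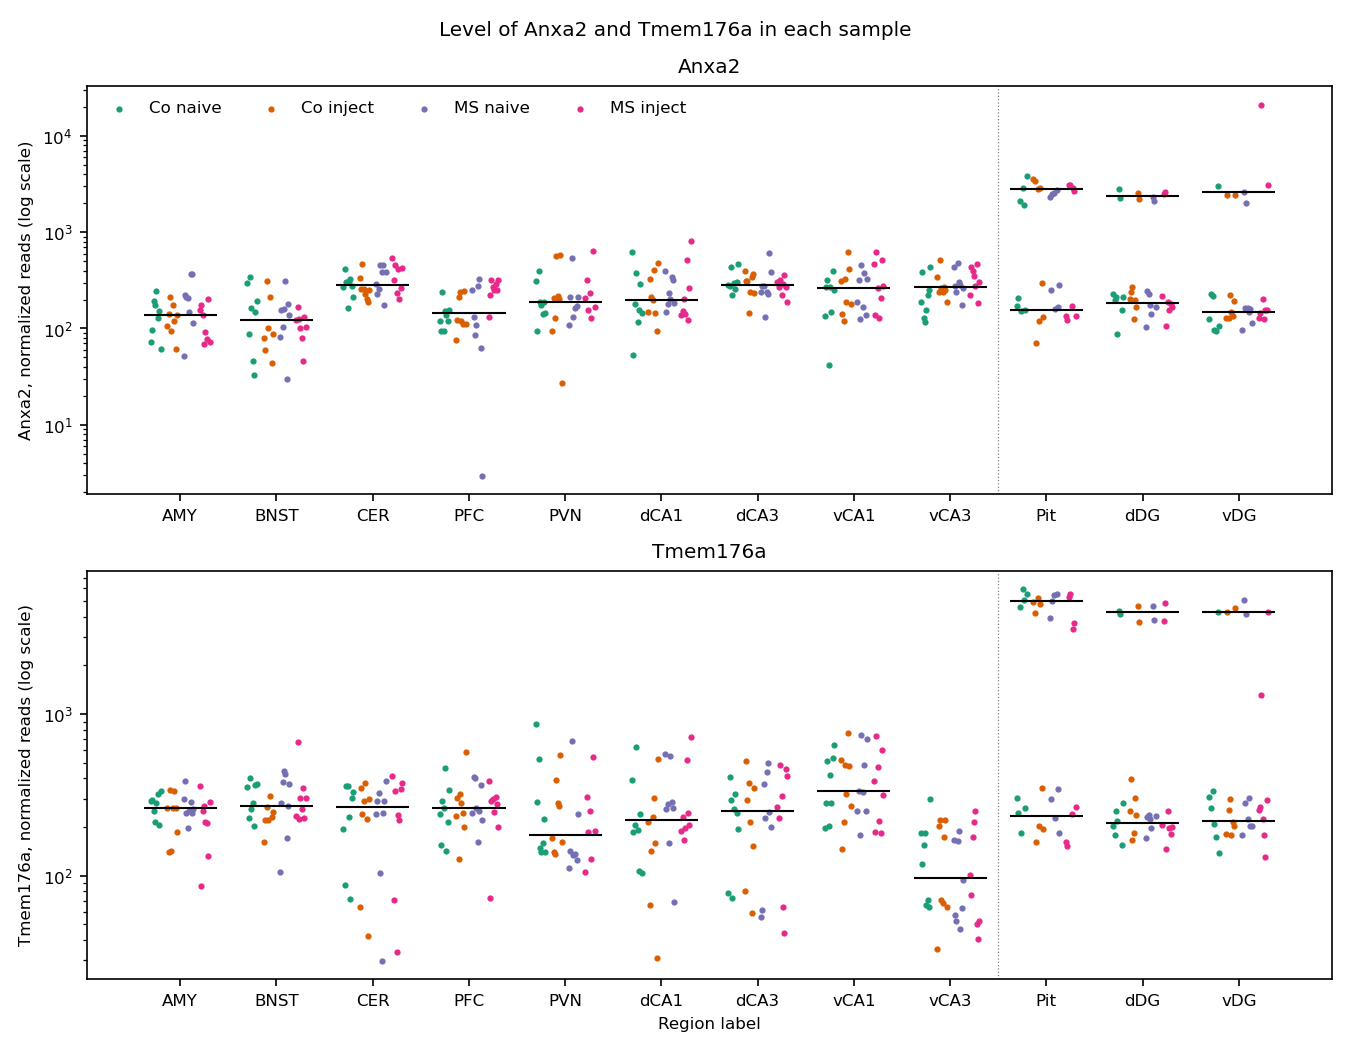
Normalized reads of Anxa2 (top) and Tmem176a (bottom) on a log axis in each of 380 samples by region label, coloured by label group, with a bar at the median (1 bar for each range in Pit, dDG and vDG). The upper points in Pit, dDG and vDG lie at 1305 or more for both genes while the highest value in the other 9 regions was 817 for Anxa2 and 869 for Tmem176a.

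In Pit, dDG and vDG both genes were either at the level of the other regions or far above it. *Anxa2* lay between 70.2 and 298 in 64 samples (167 ± 49.7, SD) and between 1901 and 21258 in 31 samples. *Tmem176a* lay between 131 and 396 in the first 64 samples (228 ± 56.7, SD) and between 1305 and 5915 in the other 31. The empty interval was 2.67 wide on the log2 scale for *Anxa2* and 1.72 for *Tmem176a*, and both genes were on the same side in 95 of 95 samples. Without the vDG sample of mouse 83, the upper range was 1901 to 3885 for *Anxa2* and 3367 to 5915 for *Tmem176a*, and the intervals were 2.67 and 3.08. These values chose the genes and are not tested. Just inside the upper range the lowest *Anxa2* value was 1901, in Pit of a Co naive mouse, and just below the interval the highest was 298, in Pit of a Co inject mouse.

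Pit had 16 of 32 samples in the upper range. There, *Anxa2* had a median of 2834 (1901 to 3885) and *Tmem176a* of 5031 (3367 to 5915), against 157 (70.2 to 298) and 233 (153 to 351) in the 16 samples of the lower range. The dDG had 8 of 32 samples in the upper range, with medians of 2410.5 for *Anxa2* (2092 to 2803) and 4261 for *Tmem176a* (3692 to 4883), against 185 (87.9 to 270.3) and 211 (147 to 396) in the lower range. The upper dDG samples were the most even of all sets, with an SD of 0.14 and 0.16 on the log2 scale. For *Tmem176a* this holds only with mouse 83, since upper vDG without it had an SD of 0.11. In vDG 7 of 31 samples were in the upper range, with medians of 2609 (2006 to 21258) and 4291 (1305 to 5066), against 147 (95.0 to 227) and 219 (131 to 332). The order of upper medians was dDG, vDG, Pit for both genes, and no neighbours in it differed by more than the smaller SD. Without mouse 83 the vDG medians were 2524 and 4294 and the order was as before, but for *Tmem176a* the step from vDG to Pit, 0.23 on the log2 scale, was then larger than the SD of vDG, 0.11.

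All lower ranges lay inside the span of the other 9 regions. Pit, dDG and vDG samples of the lower range took places 4 to 6 in the order of the 15 *Anxa2* sets and places 3, 4 and 6 in that of *Tmem176a*. The one step of *Anxa2* larger than an SD led from 285 in CER to 2410.5 in upper dDG. Together, both genes made up 0.164% to 0.665% of the reads of a lower-range library in these 3 regions and 4.55% to 12.1% of an upper-range one. Without mouse 83 the highest was 7.01%, in Pit. In dDG the depth moved with the range: upper-range libraries held 175072 to 227241 reads and lower-range ones 90772 to 164858, with no overlap. In Pit (100875 to 162015 against 83896 to 216450) and vDG (120951 to 167266 against 101579 to 261007) the depths overlapped. The part of depth in the dDG ranges was not tested.

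The label groups were spread nearly evenly over the ranges. In Pit each label group had 4 of 8 samples in the upper range, in dDG 2 of 8, and in vDG 2 of 8 except for Co naive with 1 of 7. The upper dDG values of *Anxa2* were 2274 and 2803 in Co naive, 2224 and 2542 in Co inject, 2092 and 2336 in MS naive, and 2485 and 2651 in MS inject. The 2 MS naive values lay below the 2 of MS inject, and both groups overlapped with the Co groups, with 2 samples each and no test. In vDG they were 3004 in Co naive, 2431 and 2439 in Co inject, 2006 and 2609 in MS naive, and 3080.3 and 21258 in MS inject. All but the last lay within 2006 to 3080.3.

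**Figure D2:**
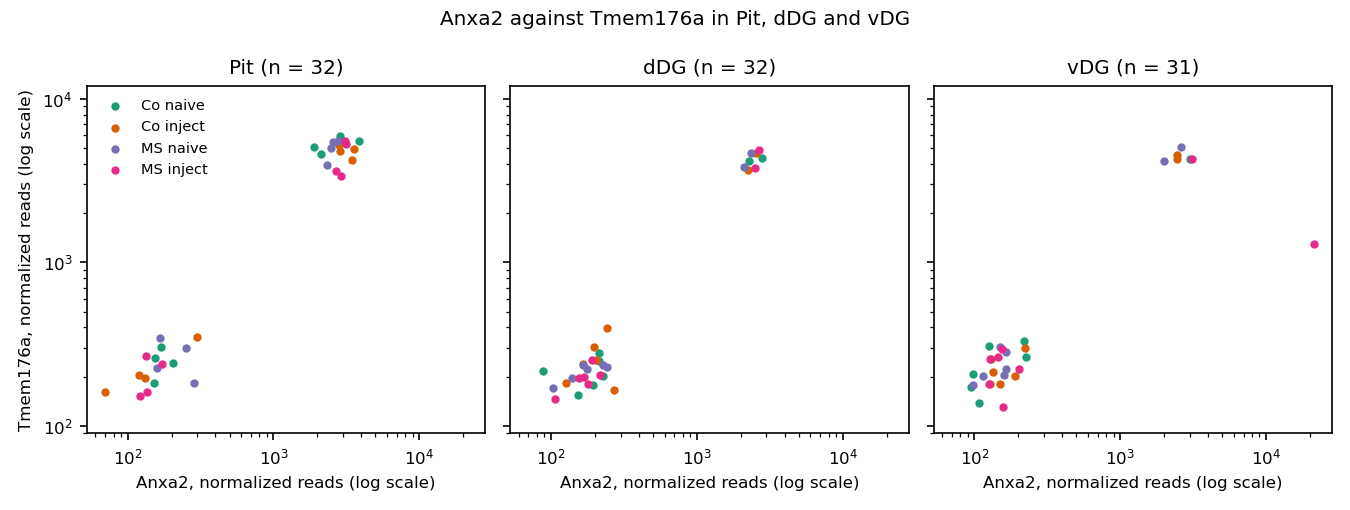
Normalized reads of Anxa2 (x axis, log) against Tmem176a (y axis, log) in each sample of Pit (n = 32), dDG (n = 32) and vDG (n = 31), coloured by label group. Every sample lies in the low or in the high corner, and the vDG sample at 21258 Anxa2 and 1305 Tmem176a lies apart from the other 6 high ones.

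The range was followed from region to region of a mouse. Of the 32 mice, 9 had no upper-range sample among Pit, dDG and vDG, 16 had 1, 6 had 2 and 1, mouse 83, had all 3. Among the mice with upper-range samples, 10 had them in Pit alone, 3 in dDG alone and 3 in vDG alone. A further 3 had them in Pit and dDG, 2 in Pit and vDG and 1 in dDG and vDG. These are counts, and whether the regions of a mouse shared a range more or less often than the region shares alone give was not tested.

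**Figure D3:**
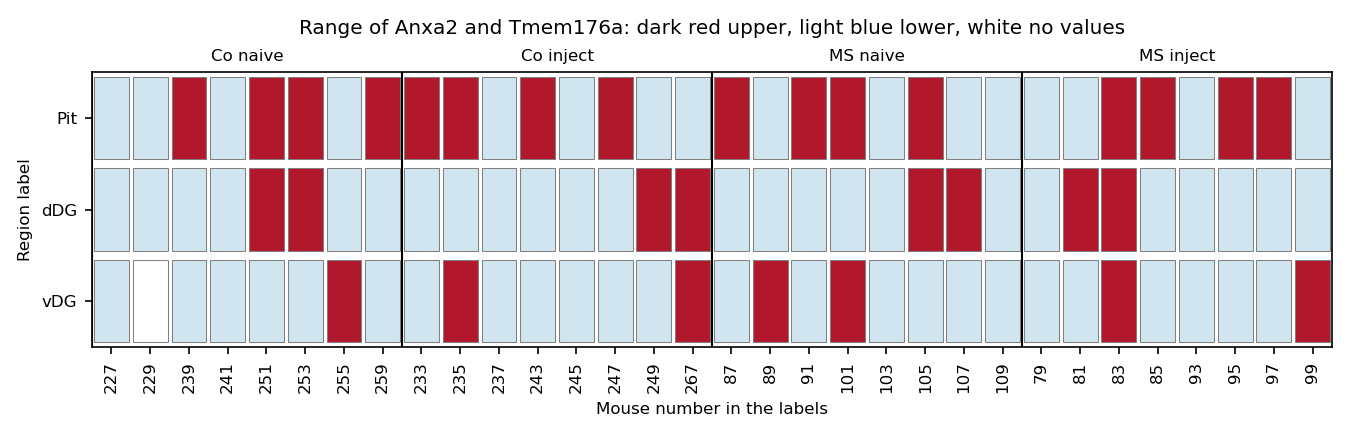
Range of both genes in Pit, dDG and vDG (rows) of each mouse (columns, by label group), with dark red for the upper range, light blue for the lower range and white for the vDG sample without values. Pit holds 16 red cells, dDG 8 and vDG 7, and only mouse 83 is red in all 3 rows.

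The vDG sample of mouse 83 differed from the other 6 upper vDG samples in several genes. Its *Anxa2* value of 21258 came from 18118 reads, or 11.4% of the library, while the others had 2006 to 3080.3. Its *Tmem176a* value of 1305 was below the 4147 to 5066 of the others. The lipocalin gene *Lcn2* was at 50.5 (others 317 to 836) and the thrombospondin gene *Thbs1* at 50.5 (others 114 to 264). It was higher in the amino acid transporter gene *Slc6a15*, 800.2 against 22.6 to 56.9, and in the ferritin gene *Fth1*, 72552 against 17246 to 20971 (*Fth1* and the cell cycle inhibitor gene *Cdkn1a*, listed as CDKN1A, 400.1 against 28.0 to 61.6, were chosen after their values were seen). This sample was thus in the upper range of both members while *Slc6a15*, a gene otherwise low in that range, was at its lower-range level.

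Within a range both genes varied by far less than between ranges, and their relation was looked at as a description, with no p. In the lower range the coefficient of log2 values (Pearson's r) was 0.56 in Pit (16 samples), 0.44 in dDG (24) and 0.48 in vDG (24), with Spearman's rho of 0.57, 0.44 and 0.50. In the upper range it was 0.15 in Pit (16 samples) and 0.57 in dDG (8). In upper vDG it was -0.97 over 7 samples, which rests on mouse 83, and 0.12 over the other 6. All values of a sample share its size factor. With libraries scaled to the same total instead, the lower-range r was 0.68, 0.57 and 0.55, and that of upper Pit -0.02 and of upper dDG 0.73. Without mouse 83, it was then -0.17 in upper vDG, and over the upper range of all 3 regions 0.16 in place of 0.31. The log2 ratio of *Tmem176a* to *Anxa2* was positive in every upper-range sample other than that of mouse 83, between 0.21 and 1.42, whereas it ran from -0.70 to 1.30 in the lower range.

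In the 9 other regions, the question was whether mice with more *Anxa2* also had more *Tmem176a* in the same region. They did in vCA1, PVN, dCA1 and BNST, and no relation was found in AMY, PFC, CER, dCA3 and vCA3. The relation was closest in vCA1, with r = 0.82 and rho = 0.85 over 32 mice (permutation p = 1e-05 for both, the smallest that 100000 resamples can give, adjusted p = 9e-05 over the 9 regions). The vCA1 mouse with the lowest *Anxa2*, 42.1, had *Tmem176a* at 203, the sixth lowest of 32, and the mouse with the highest, 626, had the highest *Tmem176a*, 764. Without the 2 samples farthest from the *Anxa2* median r was 0.85.

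In PVN r was 0.69 and rho 0.65 over 30 mice (two-sided permutation p = 4e-05 and 0.00011, adjusted p = 0.00018 and 0.000495), and 0.75 without the 2 farthest samples. The relation there ran over a wide span, from 26.9 *Anxa2* with 161 *Tmem176a* to 643 with 544. In dCA1 r was 0.59 and rho 0.61 over 32 mice (permutation p = 0.00028 and 0.00029, adjusted p = 0.00084 and 0.000652), and 0.58 without the farthest samples. The dCA1 mouse with the highest *Anxa2*, 817, also had the highest *Tmem176a*, 719. In dCA1 the samples of mice 87, 93, 99, 103, 227, 241, 245 and 267 had the highest *Tmem176a*. They had 302 to 719, with *Anxa2* at 204 to 817, while the others had 30.8 to 286 and 52.5 to 346. Whether they form a separate set was not tested. In BNST r was 0.52 and rho 0.63 over 31 mice (permutation p = 0.00255 and 0.00025, adjusted p = 0.00574 and 0.000652), and 0.44 without the farthest samples.

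These 4 relations kept their sign and an adjusted p below 0.1 when label group means were subtracted, after a term for depth, with libraries scaled to the same total and with each mouse left out in turn. None of these settings separates sets of samples within a region, and whether such sets carry the relations was not tested. In PVN and BNST, both genes had lower values in deeper libraries (r with log2 reads of -0.35 and -0.56 in PVN, -0.27 and -0.51 in BNST). After the term for depth, r was 0.63 in PVN and 0.46 in BNST.

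In AMY r was -0.11 and rho -0.13 over 32 mice (permutation p = 0.542 and 0.468, adjusted p = 0.674 and 0.601), and -0.09 without the 2 farthest samples. In PFC it was -0.09, with rho of -0.10 (permutation p = 0.599 and 0.574, adjusted p = 0.674 and 0.646), and -0.20 without the farthest samples, 1 of which is the sample with 2 reads. In vCA3 r was 0.17 and rho 0.18 (permutation p = 0.358 and 0.331, adjusted p = 0.538 and 0.497), and 0.34 without the farthest samples. A difference between the regions in this relation was not tested.

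**Figure D4:**
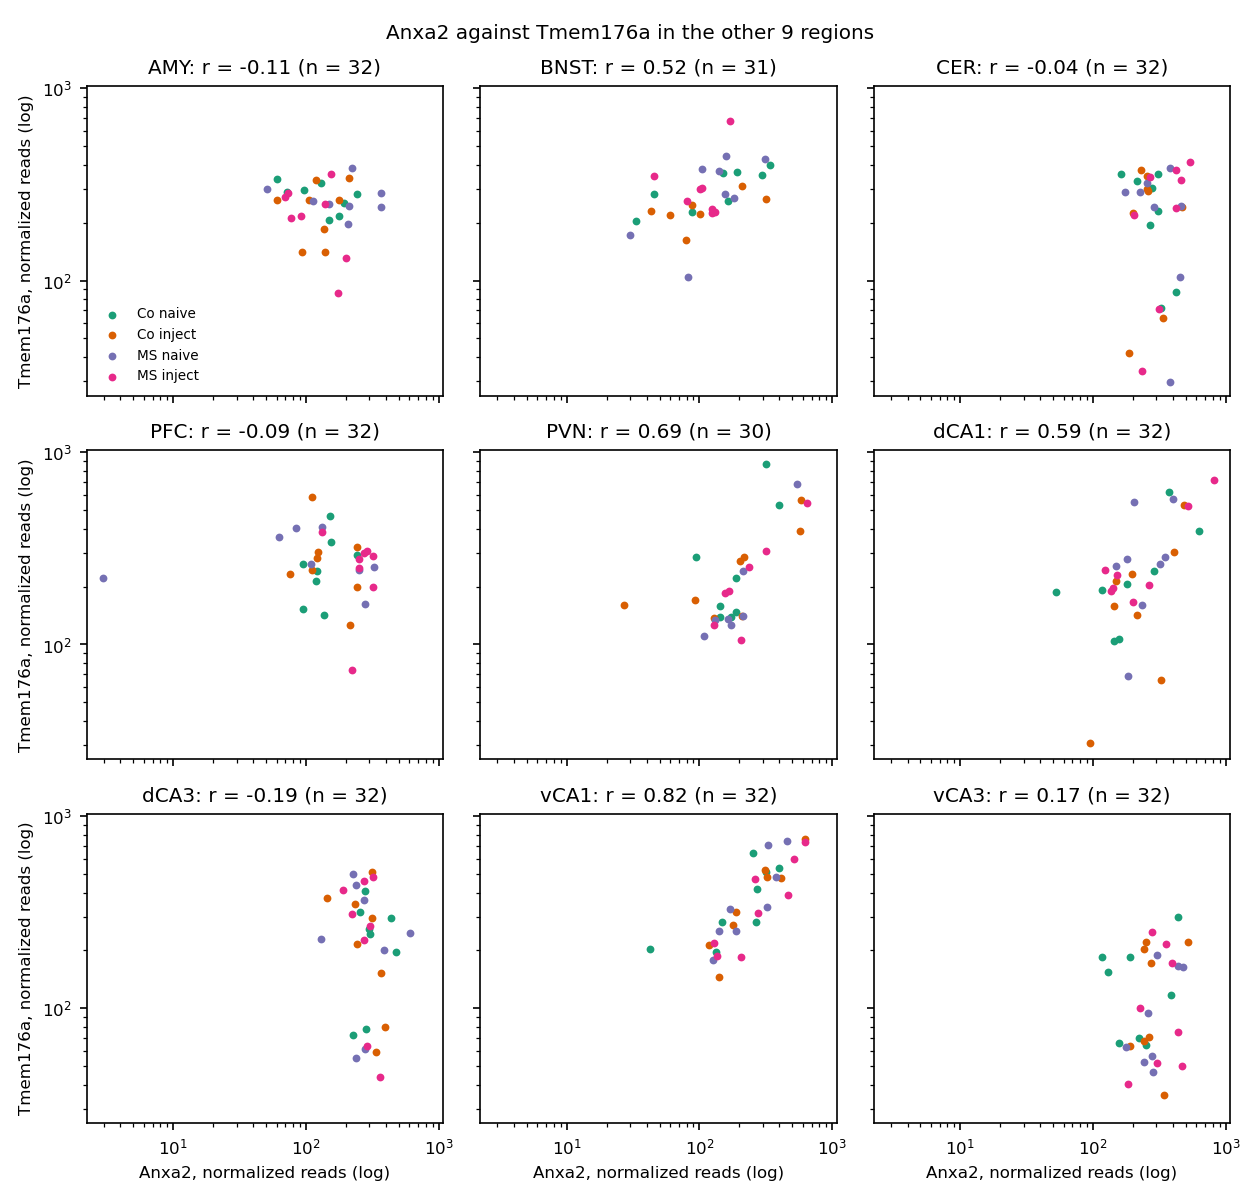
Normalized reads of Anxa2 (x axis, log) against Tmem176a (y axis, log) in the 9 regions other than Pit, dDG and vDG, with 1 point per mouse coloured by label group and Pearson's r of log2 values in each title. The points rise together in vCA1 (0.82), PVN (0.69), dCA1 (0.59) and BNST (0.52), and in CER and dCA3 a low set of 8 Tmem176a values lies below the rest.

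CER and dCA3 each held a separate low set of *Tmem176a* values, with no such split of *Anxa2*. In CER, 8 of 32 samples had *Tmem176a* between 29.8 and 105 and the other 24 between 196 and 415. In dCA3, 8 had 44.1 to 80.2 and 24 had 153 to 511. The same samples were those in the lower range of *Ociad2*, a gene for a protein of endosomes and mitochondria that was chosen after its values had been seen and that splits in CER, dCA3 and vCA3. In vCA3 the 16 samples in the lower *Ociad2* range had *Tmem176a* at a median of 63.6 (35.3 to 118) and the 16 in its upper range at 185 (94.2 to 300.4), which overlapped. The medians of *Anxa2* by *Ociad2* range were 329 and 268 in CER, 286 and 277 in dCA3 and 257 and 276 in vCA3, lower range first. The *Anxa2* values of both ranges overlapped in all 3 regions.

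Because of these sets, the relation of both members in CER and dCA3 is given within each. In CER r was 0.58 over the 8 low samples and 0.10 over the other 24, and in dCA3 -0.09 and -0.32, as descriptions. With equal library totals these were 0.63 and 0.31 in CER and -0.08 and 0.06 in dCA3, so that the sign over the 24 dCA3 samples turned. Over all 32 samples, r was -0.04 in CER (rho 0.01, permutation p = 0.838 and 0.936, adjusted p = 0.838 and 0.936) and -0.19 in dCA3 (rho -0.29, permutation p = 0.293 and 0.107, adjusted p = 0.528 and 0.193). With the *Ociad2* range taken out by its means, r was 0.25 and rho 0.32 in CER (adjusted p = 0.237 and 0.115, permutation test). In dCA3 r was then -0.30 and rho -0.35 (adjusted p = 0.169 and 0.09, permutation test), so that rho passed the threshold of 0.1 there with a negative sign and r did not. Without the 2 samples farthest from the *Anxa2* median, r was -0.06 in CER and -0.26 in dCA3.

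Other genes moved with the ranges of Pit, dDG and vDG, and both members were among those that moved most. Of 65 genes with at least 2000 reads in all, *Lcn2* had the largest difference of medians between upper and lower range, 6.38 on the log2 scale, followed by *Tmem176a* with 4.37 (20.7-fold) and *Anxa2* with 4.05 (16.6-fold). *Thbs1* followed with 3.28 and *Mob3a*, a gene for a kinase-binding MOB protein, with 2.55. The lowest were *Zap70*, a T cell receptor kinase gene, with -4.34, *Slc6a15* with -3.40 and *Pitpnm2*, a phosphatidylinositol transfer protein gene, with -2.83. The *Zap70* median was 0.94 in the upper range, under the 2.87 that 3 reads stand for at the median step, and 38.2 in the lower range, so its difference rests on values near 0. The median over the 65 genes was 0.25, and 16 genes were above 1 and 6 below -1. These differences are over the 3 regions together, and in dDG alone *Tmem176a* had the largest (4.33). The ranges were set by *Anxa2* itself, so these are values and no test.

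*Lcn2* had a median of 445 in the upper and 4.38 in the lower range, close to what 3 reads stand for, and its ranges overlapped in 3 of the 31 upper samples. *Thbs1* had medians of 171 and 16.8, with 1 upper sample inside the lower range. *Slc6a15* had 48.6 against 522, with the sample of mouse 83 as the only upper one at the lower-range level. *Pitpnm2* had 241 against 1714, with the same sample, at 394, just above the lowest value of the lower range, 364. The split was thus not particular to the 2 members in this table.

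Of the list of endosome and lysosome genes, all 5 were in the table, and their upper minus lower differences had a median of 0.21 (log2), near that of all genes. *Spag9*, which codes for a scaffold of JNK signalling, was 1.03 lower in the upper range on the log2 scale (-1.03, medians of 485 against 991). *Commd1* was at 0.22, *Mtmr3* at 0.21 and *Stambpl1* at -0.24. Of the immune list, 9 of 11 were in the table, with a median of 0.98, 4 above 1 (*Lcn2*, *Thbs1*, *Rfx5* and *Slc7a7*) and 1 below -1 (*Zap70*). Of all 65 genes, 16 were above 1 and 6 below -1. The list median is the value of *Lrrc25*, with medians of 4.87 and 2.01 in the upper and lower range. These lie near the 2.87 that 3 reads stand for at the median step, and TNF had a median of 0 in both ranges. The known partners and relatives S100a10, Tmem176b, Anxa1 and Plat were looked for, and 0 of 4 are in the table.

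No difference of either member between label groups passed the test. Over the mean of the 9 regions per mouse, *Anxa2* was 0.15 higher on the log2 scale in MS than in Co (standard error 0.09, 95% interval -0.03 to 0.33, adjusted p = 0.99 from limma) and *Tmem176a* differed by -0.00417 (standard error 0.09, -0.19 to 0.18, adjusted p = 0.99). Between inject and naive the differences were 0.09 (-0.09 to 0.27) and -0.08 (-0.26 to 0.11), each with an adjusted p of 0.95 from limma. The interaction was 0.08 for *Anxa2* (-0.28 to 0.44) and 0.13 for *Tmem176a* (-0.24 to 0.50), each with an adjusted p of 0.988. Neither member was called for any of the 3 terms, where 0% of the 69 genes were. By status the intervals reach up to 0.33 on the log2 scale, and a p above the threshold does not show equal levels.

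Within single regions, with no further terms, none of the 72 tests of a member (2 genes, 12 regions, 3 terms) was called or had an unadjusted p under 0.05. Over all 826 tests of a gene in a region, 0.121% were called for injection, and 0% for status and interaction. With 5 principal components as further terms, 1 of 24 member tests was called for the interaction (*Tmem176a* in vDG), where 3.75% of all 826 were, and 0 for status and injection, where 4.6% and 4% were. These components were taken from the residuals of the same fit, so they left each difference as it was. They acted on its error alone, which such terms can narrow. Without the components, the smallest p was that of *Anxa2* in PFC by injection, with a difference of 0.74 (standard error 0.38, unadjusted p = 0.0632, adjusted p = 0.614 from limma). There MS inject had a median of 261 (133 to 322, n = 8), against 121 (2.95 to 328) in MS naive, 122 (75.7 to 244) in Co inject and 129 (94.3 to 241) in Co naive, and all 4 groups overlapped. Without the 2-read sample of mouse 109 the difference was 0.41.

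*Anxa2* in vCA3 had a difference of 0.33 between MS and Co (standard error 0.18, adjusted p = 0.73 from limma), with medians of 280.0 and 329.7 in MS naive and MS inject and 205 and 257 in Co naive and Co inject. *Tmem176a* in AMY was 0.29 lower in inject than in naive (-0.29, standard error 0.16, adjusted p = 0.572 from limma). In Pit, dDG and vDG the mixture of ranges made intervals wide, for example -1.51 to 1.62 for *Anxa2* by status in Pit. For *Tmem176a* by status they were -0.84 to 0.78 in CER and -0.74 to 0.86 in dCA3, each with a separate low set. No limma fit had the *Ociad2* range as a term.

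**Figure D5:**
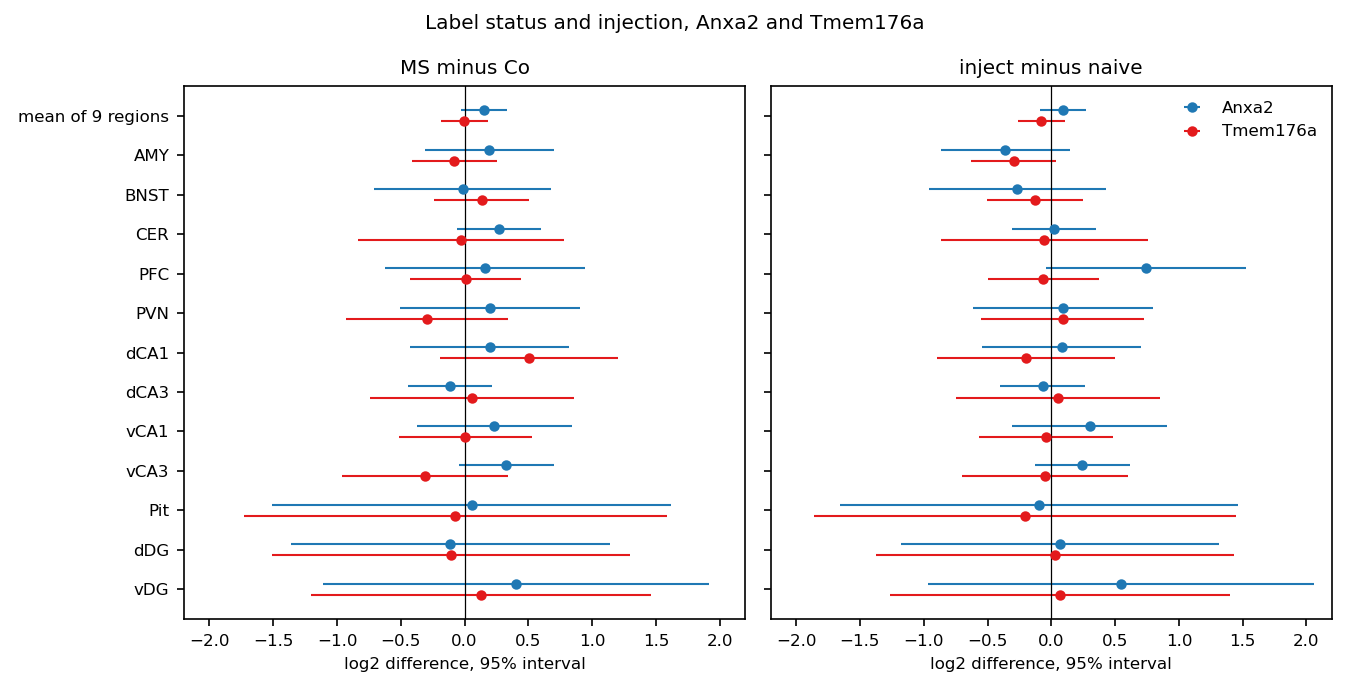
Log2 difference of Anxa2 (blue) and Tmem176a (red) between MS and Co (left) and between inject and naive (right), for the mean per mouse over 9 regions and within each region, with 95% intervals from limma. Every interval crosses 0, and those of Pit, dDG and vDG are the widest.

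No gene of either list was called by a label term, in 0 of 60 tests of the endosome and lysosome list and 0 of 107 tests of the immune list for each term within regions. The median difference by status was -0.02 and -0.00125, respectively, on the log2 scale.

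The genes most like each member differed between the levels of regions and of mice. Over the 12 region medians, *Commd1*, a gene for a protein of copper handling and endosomal sorting, was among the closest to *Anxa2* by Spearman's rho (0.81), and *Tmem176a* came 33rd of 64 genes with 0.08. The closest to *Tmem176a* were the ribosomal protein genes *Rps12* (0.71) and *Rps25* (0.68). Over the 285 samples of the 9 regions with the region median subtracted, the closest to *Anxa2* were *Rps25* (0.30) and then *Tmem176a* (0.295), and the farthest was *Fth1* (-0.30). The closest to *Tmem176a* were *Rps12* (0.62) and then *Anxa2*, and the farthest was the glucocorticoid receptor gene *Nr3c1* (-0.47). Genes of a sample share its depth and its size factor, and these are descriptions over 12 points or 285 samples. The region medians of Pit, dDG and vDG were taken over both ranges. In Pit they were 1099 for *Anxa2* and 1859 for *Tmem176a*, between its ranges, where no Pit sample lies.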

How the data were processed

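The authors made targeted RNA libraries (TruSeq Targeted RNA sequencing), filtered reads with PRINSEQ lite 0.20.4, aligned them with BWA 0.7.12 and divided the reads of each assay by a size factor from DESeq2. The values the authors deposited are thus a signal, normalized reads per assay and sample, and per the labels the build was mm10. In each sample 100% of the values were whole multiples (tolerance 0.01) of a single step, which was taken as 1 read to give the reads and the depth of the library. If a step stood for several reads, both would be higher. Samples were grouped by the labels alone, and 4 without values were left out. The members, lists and tests were chosen with earlier results of these data known.

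Values were taken as log2(value + 1). A linear model (limma 3.58.1 in R 4.3.3) of all 69 genes had terms for status, injection and the product of both, within each region and on the mean per mouse over 9 regions after the region mean was subtracted, with Benjamini-Hochberg adjustment over the genes of a fit and a threshold of 0.1, as in the study. The fit was tested on simulated data. RNA was extracted in rounds of 24 samples and libraries were made on plates of 3 regions. Which sample was in which round or plate is not given in the sources used here, so no term for it was fitted and the spread between mice includes technical error. Correlations used permutation tests (100000 resamples, two-sided, adjusted over 9 regions). The ranges of Pit, dDG and vDG were divided at the widest empty interval of log2 values. Regions of 1 mouse share a mouse number. The correlation between regions of a mouse's deviations was -0.016 for Anxa2 and -0.017 for Tmem176a, and 0.0023 over all genes. Named genes were the members, the 2 closest over region medians, the 2 closest and the farthest over samples, the 3 highest and 3 lowest between ranges (among genes with at least 2000 reads) and the members of the lists; 1 of these genes is not reported here. Alternatives were pseudocounts of 0.1 and 10, a mean value of at least 10, equal library totals, a threshold of 0.05, 5 principal components in place of the study's surrogate variables, adjustment over all regions, all 12 regions, the mouse as a block, the range as a term (which supports nothing, since the members set the range), depth, label group means and left-out samples. Other steps ran in Python 3.11.15 (pandas 2.3.3, numpy 2.4.6), with figures from matplotlib 3.10.9.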

Additional observations from a re-analysis of the deposited data

Results flagged for a closer look

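In 96 label groups within a region (7 or 8 mice, both genes), the extreme sample was set against the rest by Dixon's criterion at 95%. In all 8 groups were past it, 4 for each gene. Chance alone gives about 1 in 20, which bears on the 9 regions other than Pit, dDG and vDG, where 6 of 72 groups were past it, 3 for each gene.

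*Anxa2* in PFC was 2.95 in mouse 109 (MS naive), the lowest of 8, from 2 reads, while the others had 63.0 to 328. It was 133 in mouse 79 (MS inject), also the lowest of 8, with 223 to 322 in the others. *Tmem176a* in PFC was 73.3 in mouse 81 (MS inject), the lowest of 8, with 199 to 383 in the others, and in BNST of the same mouse it was 674, the highest of 8, with 225 to 349 in the others.

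Among the MS naive samples of PVN both genes were highest in mouse 91, with 541 for *Anxa2* (others 107 to 212, n = 7 in all) and 680.2 for *Tmem176a* (others 111 to 242). In vDG mouse 255 was the only Co naive sample in the upper range, with 3004 for *Anxa2* (others 95.0 to 227) and 4296 for *Tmem176a* (others 137 to 332). Both follow from the ranges that chose the genes and say nothing further on this sample.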

How the results depend on the processing

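Of 271 values recomputed under other settings, 258 kept their direction and their side of the threshold or moved by less than the spread. Some of the 258 could not change, since the setting left their samples as they were, such as a left-out vDG sample for a fit in PFC. With the mouse as a replicate block, 0 members were called for each term, and *Tmem176a* by status over 9 regions changed sign from -0.00417 to 0.000483 (0.00182 with equal library totals). With 5 principal components, 1 member was called in a region where 0 had been, *Tmem176a* by the interaction in vDG (-0.72, adjusted p = 0.044 from limma, against 0.75 without them). The components come from residuals of the same fit and act on the error alone, which they can narrow. Of all 826 interaction tests, 3.75% were called under this setting. Without the vDG sample of mouse 83 it was -0.97, with an adjusted p of 0.793 from limma and, with the components, 0.00752, and 2 members were then called, where 35 of 826 tests were. The fit with the range as a term is counted above but supports nothing, since the range was set by *Anxa2* itself. Over the remaining settings no member was called. The number of the 9 regions with a called relation was 4 by r under every setting, and by rho 4 except with the *Ociad2* range as a term, where dCA3 made it 5 (rho -0.35, adjusted p = 0.09, permutation test). The r of CER, -0.04, turned to 0.25 with the *Ociad2* range as a term and ran from -0.148 to 0.0301 with each mouse left out. Without the vDG sample of mouse 83, chosen after seeing the data as were the leave-one-out values and the *Ociad2* term, r in the upper range was 0.12 in vDG and 0.31 over the 3 regions. The upper-range count of *Anxa2* was 31 with a pseudocount of 10 and with equal totals, and that of *Tmem176a* 31 and 30, where the vDG sample of mouse 83, at 976, fell below the widest empty interval. With equal totals 3 medians moved by more than an SD, to 377 for *Anxa2* in dCA3, 2661 for *Anxa2* in upper dDG and 4836 for *Tmem176a* in upper dDG. The planned count test on recovered reads was not run, since the criterion set for it asks for more low values per sample than 69 genes give. All read numbers therefore rest on taking 1 step of a sample as 1 read. Values near 3 reads limit single low samples.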
